A study of Mus musculus with 8 samples.

Results

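NRRA was compared with vehicle in primary spermatogonial cultures (SSC cultures) labelled Stra8KO. The comparison used the 4 libraries, of 8 in all, whose labels give this genotype, 2 after vehicle (Veh) and 2 after NRRA, with every gene of the count table included. NRRA joins nutrient restriction to retinoic acid (RA). Per the study's methods, most of the complete SSC medium was replaced by Earle's balanced salt solution, RA was added, and cells were treated for 2 days. The growth factors GDNF and bFGF, listed in the labels for the culture medium, were therefore diluted with the nutrients, and effects of RA, of lost nutrients and of lost growth factors cannot be told apart in this comparison. All cultures had the strain background C57BL/6XDBA/2 and, per the methods, came from testes of 6-day-old pups. Germ cells grew on mouse embryonic fibroblasts of CF1 mice that had been arrested by irradiation. The Stra8KO cultures came from Stra8-deficient mice. The study's reporting summary describes the sequencing replicates as 2 independent biological ones, and the methods state that mice, tissues or cells differed between experimental replicates. The sources do not say if each library stems from a separately derived culture. P-values measure the spread between these libraries, which may not be the spread between separately derived cultures. The other 4 libraries, from cultures labelled Spo11KO on the same background and with the same media, entered the fit for its estimate of spread and served as the reference in a test of the difference between genotypes.

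In the testis, spermatogonial stem cells are held undifferentiated by GDNF and FGF signals that reach them through RET and ERK. RA then acts through nuclear receptors to start differentiation, and in preleptotene cells it induces Stra8, whose product works with MEIOSIN to turn on the genes of meiotic prophase. RA also induces genes that bind, store and destroy it, so that these genes serve as a readout of the signal. Germ cells lacking Stra8 respond to RA but do not complete entry into meiosis.

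Stra8 was examined first, since it checks the genotype. It had 2 and 0 counts in the Veh libraries and 169 and 170 counts in the NRRA libraries, which is 8.16 and 7.85 counts per 1000000 (CPM) after NRRA. The level after NRRA was at least 52.97-fold above the floor of 3 counts in a Veh library. Some Stra8 transcript thus remained, and gene counts do not show which exons it came from. The NRRA libraries labelled Spo11KO had 486 and 552 CPM.

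Library totals were between 20960794 and 23701569 counts in Stra8KO, and the common biological coefficient of variation over all libraries was 3.39%. Of 20588 genes tested with edgeR's quasi-likelihood test, 8548 were called at a Benjamini-Hochberg adjusted p under 0.05, which is 41.5% of the genes, with 21.4% called higher and 20.1% lower. A fold change of at least 2 was reached by 10.6% of the genes, 6.96% higher and 3.61% lower. The median log2 fold change over all tested genes was 0.013. With so many genes called, the count of called members of a gene list is read against these shares. Genes of 48 lists were examined, 939 of whose 988 members were tested. Levels are given as CPM in the order Veh replicate 1, Veh replicate 2, NRRA replicate 1 and NRRA replicate 2.

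The labelled cell type was checked against markers. Germ cell genes were present in all 4 libraries, with Ddx4, an RNA helicase of germ cells, at 96.7, 100, 110 and 105 CPM, and Dazl, an RNA-binding protein of germ cells, at 285, 288, 316 and 293 CPM. Fibroblast genes were abundant as well. The 20 fibroblast markers together took 31903 and 32372 CPM in Veh and 46571 and 46102 CPM after NRRA, and 12 of them rose and 7 fell. Col1a1 and Col3a1 among them gained 7286 and 4049 CPM on average, a large part of the rise of the sum. The 20 pan-germ genes together took 1020 and 1012 CPM in Veh and 1244 and 1184 CPM after NRRA, with 13 higher and 0 lower (median log2 0.26). Of 15 markers of Sertoli and Leydig cells, 9 were tested, and the defining genes Amh, Fshr and Insl3 were too low for it. Among those tested, Wt1 rose from 3.98 and 3.68 to 11.97 and 12.05 CPM, Clu rose 2.06-fold, and Sox9 fell from 40.5 and 35.2 to 15.6 and 15.5 CPM. Of 31 keratins and cornified envelope genes, 19 were tested, not including Krt5 and Krt14, and 4 rose and 6 fell. Sprr3 rose from 0 and 0.101 to 16.8 and 18.2 CPM. The cornified envelope gene Lce1g fell from 12.6 and 13.5 to 0.531 and 0.369 CPM. In these bulk libraries, a change in the number of cells of a type and a change in RNA per cell cannot be told apart, and whether a gene was read from germ or feeder cells was not tested.

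**Figure D1:**
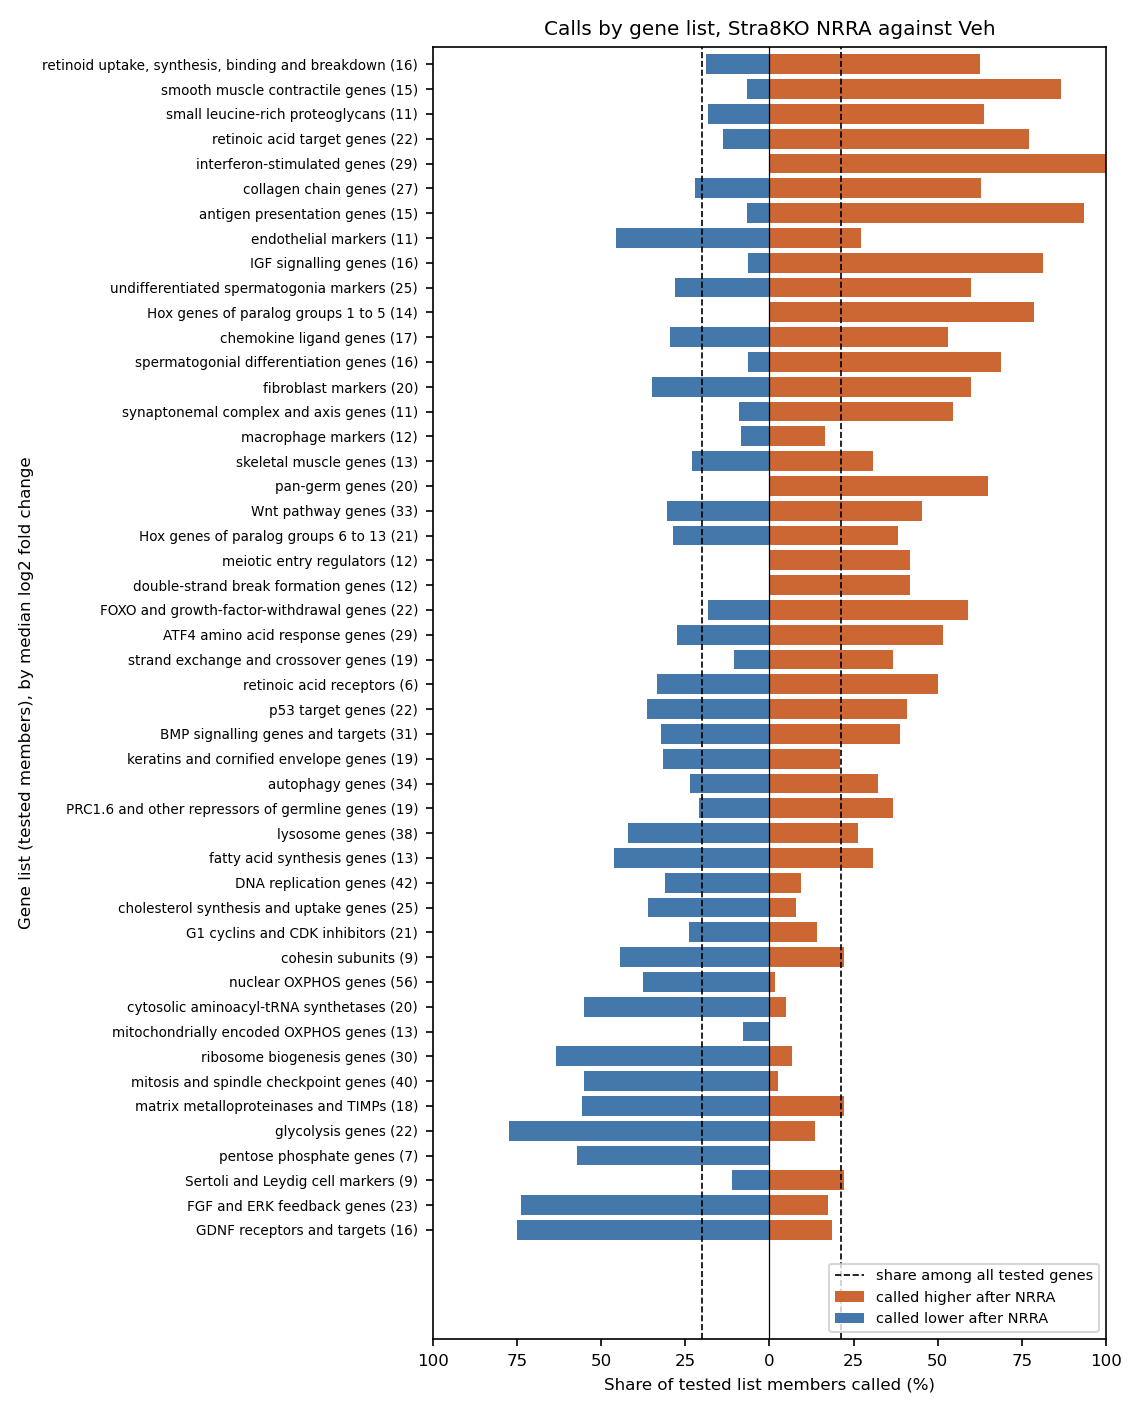
Share of the tested members of each gene list (number tested in parentheses) called higher (right) or lower (left) after NRRA in Stra8KO cultures, by edgeR at an adjusted p under 0.05. Lists are ordered by median log2 fold change, and dashed lines mark the shares among all tested genes, 21.4% higher and 20.1% lower. All 29 interferon-stimulated genes lie on the higher side, and 12 of 16 GDNF genes on the lower.

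Genes that receive and process RA moved widely. Of 16 genes for retinoid uptake, synthesis, binding and breakdown, 10 rose and 3 fell, all 13 by at least 2-fold, and the median log2 fold change was 1.68. Among 22 known RA targets, 17 rose and 3 fell, with a median of 1.37. To show what stands in front of 2 of these genes, the RefSeq promoter windows (assembly GRCm38.p6, 250 bases before to 50 bases after the start) are given with a DR5 retinoic acid response element in capitals. The Rarb window is chr14:16575427-16575726 on the minus strand, and the Cyp26a1 window is chr19:37697558-37697857 on the plus strand.
Rarb: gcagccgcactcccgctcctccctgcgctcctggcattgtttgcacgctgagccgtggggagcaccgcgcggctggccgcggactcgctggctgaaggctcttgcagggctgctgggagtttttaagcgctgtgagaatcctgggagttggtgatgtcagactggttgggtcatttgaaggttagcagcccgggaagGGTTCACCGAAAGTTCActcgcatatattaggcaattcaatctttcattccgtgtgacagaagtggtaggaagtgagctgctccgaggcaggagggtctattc
Cyp26a1: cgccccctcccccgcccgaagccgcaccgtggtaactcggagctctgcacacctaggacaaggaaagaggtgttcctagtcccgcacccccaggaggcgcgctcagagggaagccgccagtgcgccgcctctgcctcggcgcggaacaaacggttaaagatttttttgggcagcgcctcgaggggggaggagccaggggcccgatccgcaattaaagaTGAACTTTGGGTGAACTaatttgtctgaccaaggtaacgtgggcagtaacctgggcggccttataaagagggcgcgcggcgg
The element is a direct repeat of the receptor half-site with a spacer of 5 bases, searched on both strands. It was found in 2 of the 16 RA target genes that had a window, and in 0.0974% of all 32851 windows. It starts 53 bases before the Rarb start and 32 bases before that of Cyp26a1. The other 14 target genes do not hold these letters in their windows. A DR2 element, with a spacer of 2 bases, was found in 0 of the 16 genes and in 0.268% of all windows. In each search here, a gene counted if any of its windows held the letters, while the share of all windows is over single windows.

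The RA receptors responded unequally. Rarb, the receptor gene known as an RA target, had 0.537, 0.655, 25.6 and 27.1 CPM and rose 44.1-fold (log2 5.46, SE 0.189, edgeR adjusted p 5.17e-26). Its Veh and NRRA libraries lay far apart. Rara, the receptor of Sertoli cells and of many other cells, stayed at 57.9, 56.6, 56.8 and 57.05 CPM and was not called (log2 -0.01, SE 0.0578). Rarg, the receptor of differentiating spermatogonia, rose slightly, by 0.30 (log2, SE 0.0497), and Rxrb by 0.21, while Rxra fell by 0.23 on the log2 scale and Rxrg fell by 0.63. The call for Rxrg was lost without Veh replicate 1 (adjusted p 0.0743) and without NRRA replicate 1 (adjusted p 0.180).

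Enzymes that lower RA rose. Cyp26a1, which hydroxylates RA, had 0.224, 0.604, 9.03 and 11.2 CPM, a 24.9-fold rise (log2 4.64, SE 0.270). Cyp26b1, the related enzyme that shields fetal testis germ cells from RA, had 127, 127, 421 and 446 CPM and rose 3.42-fold. Dhrs3, which turns retinaldehyde back into retinol, rose 11.0-fold from 16.7 and 15.5 to 169 and 184 CPM. Genes of uptake and storage rose too. Stra6, the membrane receptor for retinol-binding protein, rose 8.22-fold, and Lrat, which makes retinyl esters, rose 7.05-fold from a level below 0.3 CPM. The RA-making enzymes differed among themselves. Aldh1a1 rose by 1.67 (log2), Aldh1a3 fell by 1.54 on the log2 scale, and Aldh1a2 was not called at 7.87, 8.51, 8.64 and 7.52 CPM. The RA-binding proteins moved in opposite directions, with Crabp2 up from 11.5 and 12.8 to 37.1 and 40.3 CPM and Crabp1 down from 1990 and 1957 to 587 and 622 CPM.

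**Figure D2:**
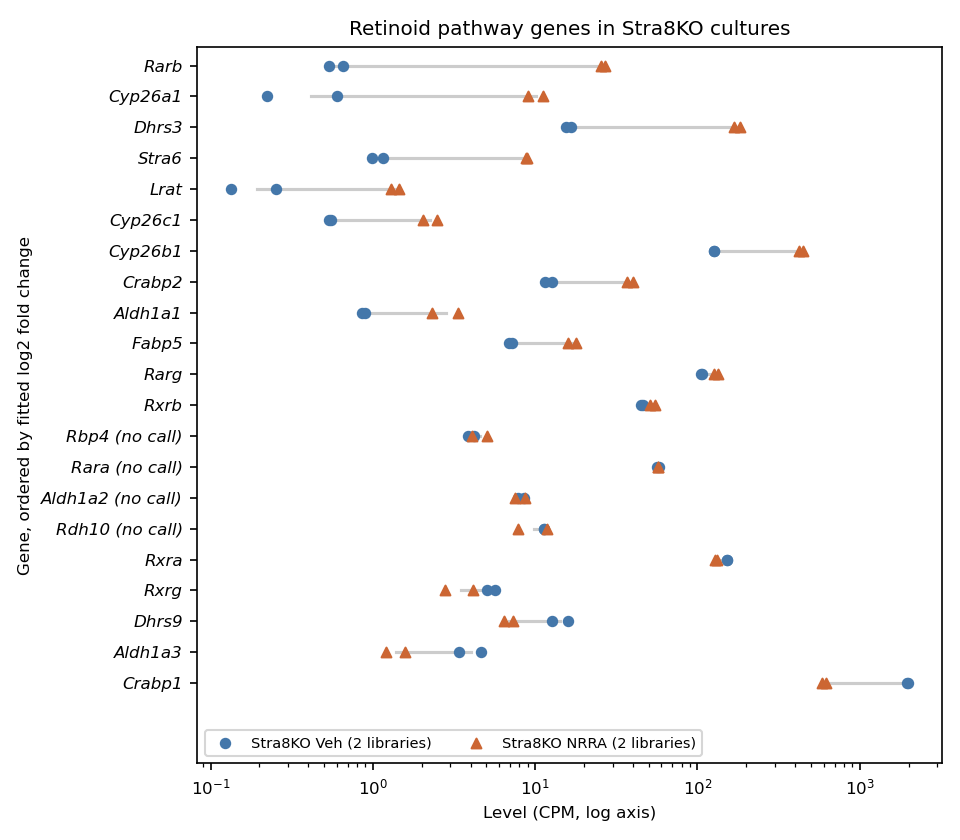
CPM (log axis) of RA receptor genes and genes of retinoid uptake, synthesis, binding and breakdown, with a circle for each Veh library, a triangle for each NRRA library and a grey line between the group means. Rarb and Cyp26a1 are the most widely separated genes, Crabp1 falls from 1990 and 1957 to 587 and 622 CPM, and Rara, Aldh1a2, Rdh10 and Rbp4 were not called.

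Targets of RA outside its own metabolism rose too. Tgm2, a transglutaminase, had 8.23, 8.06, 136 and 145 CPM (17.2-fold). Rec8, the meiosis-specific cohesin subunit, had 5.14, 3.37, 55.2 and 61.3 CPM (13.5-fold). Meis2 rose by 0.99 (log2), Hoxb1 by 1.07 and Nrip1 by 0.61. The orphan receptor genes Nr2f1 and Nr2f2 fell by 0.65 and 0.67 on the log2 scale. Hox genes were read as a family because RA is known to activate the 3' members. Of 14 tested genes of paralog groups 1 to 5, 11 rose and 0 fell, also 0 at an unadjusted edgeR p under 0.05, and the median log2 fold change was 0.51. DESeq2 called 7 of them higher and 0 lower. Of 21 tested genes of groups 6 to 13, 8 rose and 6 fell (median 0.20), from Hoxa10 at 1.48 to Hoxc12, Hoxc11 and Hoxc13, which fell by 2.93, 2.12 and 1.65 on the log2 scale. The call for Hoxd3, which was under 2 CPM in all 4 libraries, was lost under several alternatives.

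Genes of spermatogonial differentiation rose more than they fell, 11 against 1 of 16 (median log2 0.39). Kit, the receptor that marks differentiating spermatogonia, had 4.92, 5.49, 181 and 173 CPM and rose 34.1-fold (log2 5.09, SE 0.071). Sohlh1, a transcription factor of these cells, had 18.1, 15.6, 57.8 and 58.4 CPM (3.44-fold). The NRRA libraries of both genes lay above the Veh libraries without overlap, and groups did not overlap in 8542 of all 8548 called genes. Dmrt1, which holds back meiosis in spermatogonia, rose from 144 and 140 to 255 and 251 CPM, and Dnmt3b, a de novo DNA methyltransferase, rose by 0.48 (log2). Sohlh2 (log2 -0.07), Dnmt3l (-0.53) and Ccnd2 (0.01) were not called.

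Genes of the undifferentiated state did not fall as a group. Of 25 tested markers, 15 rose and 7 fell, with a median log2 fold change of 0.52. Utf1, a chromatin factor of early spermatogonia, had 2.46, 2.37, 14.3 and 15.0 CPM and rose 6.06-fold (SE 0.156 on the log2 scale). Neurog3, a marker of progenitor spermatogonia, rose from 0.358 and 0.403 to 1.69 and 1.71 CPM, and Pax7 rose by 1.35 (log2). Id4, a marker of stem cells, had 11.7, 10.2, 27.5 and 27.6 CPM (2.51-fold). These genes were all low in Veh, below 12 CPM. The stem cell factor gene Nanos2 was not called (log2 0.01, 1.84 and 1.86 CPM on average in Veh and NRRA). Upp1, a uridine phosphorylase, fell most, from 38.8 and 37.7 to 7.34 and 6.74 CPM.

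Receptors and targets of GDNF fell more often than they rose, 12 against 3 of 16, with a median of -0.83. Ret, the signalling receptor, had 138, 144, 92.1 and 82.8 CPM and fell by 0.69 on the log2 scale. Gfra1, the co-receptor that binds GDNF, rose from 64.0 and 63.5 to 110 and 112 CPM, so that receptor and co-receptor moved in opposite directions. Etv5, a transcription factor induced by GDNF, had 143, 134, 92.4 and 100 CPM and fell by 0.53 on the log2 scale, while Nefm fell 4.92-fold and Egr3 2.48-fold. Genes of the FGF and ERK list, which holds FGF receptors as well as induced genes, fell in 17 of 23 cases and rose in 4 (median -0.73). Dusp6, the phosphatase that switches off ERK, had 256, 233, 45.6 and 48.4 CPM, a 5.20-fold fall. Etv1 fell 8.20-fold, Fosl1 fell by 2.12 and Dusp4 by 1.93 on the log2 scale. Among the members that rose were the receptors Fgfr1, Fgfr2 and Fgfr4 and the inhibitor Spry1, which had 19.9, 21.95, 47.1 and 49.8 CPM.

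Meiotic genes were read by the steps of prophase. Of 12 regulators of meiotic entry, 5 rose and 0 fell, which is 41.7% of them beside 41.5% of all genes, and 0 were lower at an unadjusted p under 0.05. Gm4969, the gene of the STRA8 partner MEIOSIN, rose 5.40-fold but stayed low, at 0.581, 0.906, 3.76 and 4.20 CPM. Zfp541 rose from 1.48 and 1.06 to 2.99 and 2.82 CPM, and Taf7l, Rbm46 and Mybl1 rose by 0.44, 0.43 and 0.37 (log2). Meioc and Ythdc2, whose products act together on RNA at meiotic entry, changed by -0.03 and -0.04 and were not called.

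Of 9 cohesin subunits, 2 rose and 4 fell. The meiosis-specific Rec8 rose, as given above, and Stag3 rose from 108 and 102 to 189 and 187 CPM. The meiosis-specific Smc1b was not called at 72.6, 68.3, 71.5 and 60.0 CPM (log2 -0.10, SE 0.0685), and Rad21l was not called either (log2 -0.10, SE 0.169). Of the subunits shared with mitosis, Smc3 fell by 0.30, Stag1 by 0.18, Smc1a by 0.15 and Rad21 by 0.13 on the log2 scale, while Stag2 was not called. The fall of Stag1 was not called without Veh replicate 1 or without NRRA replicate 2.

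Of 11 tested genes of the synaptonemal complex and chromosome axis, 6 rose and 1 fell (median log2 0.30). Sycp3, a lateral element protein, had 6.08, 7.15, 14.3 and 12.3 CPM (2.01-fold). Hormad1, which marks unsynapsed axes, rose from 4.20 and 4.93 to 8.49 and 8.03 CPM, and Sycp2 by 0.62 (log2). Trip13 fell by 0.42 on the log2 scale. Of 12 genes for DNA double-strand breaks, 5 rose and 0 fell, which is 41.7% called beside 41.5% of all genes. Mei1 rose 2.02-fold and Spo11 2.11-fold, to 3.28 and 3.05 CPM. Prdm9, which sets break sites, and Mei4, a partner of the break enzyme, had log2 values of -0.13 and -0.01 and were not called.

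Of 19 tested genes of strand exchange and crossover, 7 rose and 2 fell (median 0.10), which is 47.4% called beside 41.5% of all genes. Tex15 rose from 84.2 and 84.1 to 162 and 141 CPM and Rad51ap2 rose 3.53-fold to 1.64 and 1.57 CPM. The recombinase gene Dmc1 had 7.47, 8.21, 6.76 and 7.06 CPM and was not called (log2 -0.18, SE 0.142). Its Veh and NRRA libraries did not overlap but lay within 2 CPM of each other. Among the pan-germ genes, Pld6, a mitochondrial enzyme of the piRNA pathway, rose 2.09-fold, and Piwil2, a piRNA-binding protein, rose from 109 and 111 to 182 and 169 CPM. Subunits of PRC1.6 and other repressors that keep germline genes silent changed little, with 7 higher and 4 lower of 19 and 0 of them 2-fold. Mga and Pcgf6 rose by 0.17 and 0.24 (log2), Ring1 rose by 0.76, and Max and L3mbtl2 were not called. The median of this list was -0.01, and it was 0.00219 without NRRA replicate 1 and 0.0311 without NRRA replicate 2.

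Genes that respond to lack of amino acids through ATF4 were mixed, with 15 higher and 8 lower of 29 and a median of 0.15. Ddit3, which encodes CHOP, had 22.1, 25.2, 59.0 and 56.5 CPM (2.45-fold), Atf5 rose 2.22-fold and Cbs, an enzyme of cysteine synthesis, rose 5.93-fold to 3.86 and 4.06 CPM. Asns, asparagine synthetase and a known target of ATF4, was not called at 49.2, 48.6, 50.4 and 51.1 CPM. Slc7a11, the cystine importer, fell 5.66-fold from 64.7 and 62.6 to 11.1 and 11.4 CPM. Atf4 itself rose by 0.20 (log2, SE 0.0489). The cytosolic tRNA synthetases, many of them also targets of ATF4, fell in 11 of 20 cases and rose in 1, Wars, which went from 67.1 and 63.3 to 106 and 112 CPM.

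Genes of carbon metabolism were read by pathway. Of 22 glycolysis genes, 17 fell and 3 rose, 0 of them by 2-fold, with a median of -0.32. Pkm, pyruvate kinase, had 1757, 1733, 983 and 1003 CPM and fell by 0.81 on the log2 scale, and Pfkp, Gapdh and Ldha fell by 0.70, 0.56 and 0.56. Pfkfb3 and Ldhb rose by 0.57 and 0.51. In the pentose phosphate pathway 4 of 7 genes fell, among them G6pdx by 0.65 on the log2 scale, and 0 rose, also 0 at an unadjusted p under 0.05. Nuclear genes of oxidative phosphorylation fell in 21 of 56 cases and rose in 1, which is 39.3% called beside 41.5% of all genes. Their calls were nearly all falls, while all tested genes had 21.4% higher and 20.1% lower. Mitochondrially encoded genes were called in 1 of 13, mt-Nd1, which fell by 0.30 on the log2 scale. Cholesterol genes had 2 higher and 9 lower of 25 (median -0.09), a called share of 44% made up mostly of falls. Fatty acid synthesis genes had 4 higher and 6 lower of 13, a share of 76.9%. Fads2, a fatty acid desaturase, rose from 85.1 and 83.2 to 163 and 170 CPM while Fasn, the synthase, fell by 0.54 on the log2 scale.

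Among genes of growth and nutrient state, ribosome biogenesis genes fell in 19 of 30 cases and rose in 2 (median -0.17). Genes of FOXO and growth factor withdrawal rose in 13 of 22 cases and fell in 4. Fbxo32, a ubiquitin ligase induced in atrophy, had 28.4, 27.8, 78.4 and 80.3 CPM (2.82-fold), Pdk4, which limits pyruvate oxidation, rose 2.64-fold and Klf15 4.16-fold. Txnip, another gene of this list, fell from 189 and 188 to 84.5 and 82.1 CPM. Autophagy genes had 11 higher and 8 lower of 34, and lysosome genes 10 higher and 16 lower of 38, each with 1 gene past 2-fold. These were Tfeb, a master regulator of lysosome genes, which fell 3.08-fold from 30.1 and 27.4 to 9.12 and 9.55 CPM, and the protease gene Ctsl, which fell by 1.21 on the log2 scale. The median of the autophagy genes was -0.003 and changed sign under alternatives.

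Of 40 mitosis and checkpoint genes, 22 fell, 1 rose and 17 were not called, with a median of -0.19 and 0 past 2-fold. Mki67, a proliferation marker, had 231, 238, 172 and 167 CPM. The gene that rose was Cdc25c (log2 0.90, SE 0.150). DNA replication genes fell in 13 of 42 cases, rose in 4 and were not called in 25. The called share was near that of all genes, but its calls leaned to falls. All tested genes had 21.4% higher and 20.1% lower. Pola1, the catalytic subunit of DNA polymerase alpha, rose by 0.76 (log2). Ccnd1, cyclin D1, fell most among the G1 genes, from 965 and 941 to 377 and 386 CPM, and the inhibitor gene Cdkn1c rose 2.01-fold. Targets of p53 were split at 9 higher and 8 lower of 22, and Cdkn1a was not called (log2 -0.07).

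Genes of matrix and contraction, many of which fibroblasts express, had medians far from that of all genes. Of 27 collagen chains, 17 rose and 6 fell, 14 and 1 of them by at least 2-fold (median log2 1.00). Col1a1, Col1a2 and Col3a1 gained more CPM than any other protein-coding gene, a ranking that does not account for length. Col1a1 had 4096 and 4193 CPM in Veh and 11384 and 11477 CPM after NRRA. The rises of Col14a1 (7.95-fold) and Col11a1 (5.23-fold) were larger in fold. Col15a1, Col6a3, Col7a1 and Col5a3 fell by 1.12, 0.85, 0.81 and 0.72 on the log2 scale, so that the family did not move as a whole.

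Small leucine-rich proteoglycans, which organise collagen fibrils, rose in 7 of 11 cases and fell in 2 (median 1.44). Ogn, osteoglycin, had 1.43, 2.01, 337 and 308 CPM, a 188-fold rise (log2 7.56, SE 0.0888). Aspn, asporin, rose 17.0-fold, Fmod by 2.19 and Prelp by 2.03 (log2), while Lum, lumican, fell by 0.73 on the log2 scale. Fap, a protease of activated fibroblasts, had 4.34, 4.38, 59.6 and 57.4 CPM, and S100a4, often used as a fibroblast marker, fell 4.51-fold.

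The contractile genes of smooth muscle and myofibroblasts rose in 13 of 15 cases and fell in 1, with a median of 1.52. Acta2, smooth muscle actin, had 46.5, 40.8, 805 and 842 CPM, an 18.8-fold rise (log2 4.24, SE 0.0493, edgeR adjusted p 2.19e-42). Lmod1, which nucleates actin filaments, rose 9.46-fold, Myl9, a myosin light chain, rose from 20.04 and 20.14 to 131 and 130 CPM, and Tagln from 53.3 and 50.1 to 223 and 228 CPM. The CArG box, a run of A and T between CC and GG, was found in 1 of the 12 contractile genes with a window, Myl9. It was in 1.63% of all windows. Smtn fell by 0.43 on the log2 scale and Des was not called. Genes of skeletal muscle did not follow. Of 25, 13 were tested, 4 rose and 3 fell (median log2 0.28). Chrna1, a subunit of the acetylcholine receptor, fell from 22.1 and 20.6 to 0.676 and 1.34 CPM. Mymk rose 9.08-fold, from 0.134 and 0.352 to 2.32 and 2.08 CPM.

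Matrix proteases and their inhibitors fell more often than they rose, 10 against 4 of 18. Mmp3, stromelysin, had 3213, 3121, 321 and 321 CPM (9.87-fold lower). Mmp10 fell 12.2-fold from 47.5 and 40.5 to 3.76 and 3.46 CPM, and Mmp12 fell 3.42-fold. Timp1 fell 2.45-fold, while Timp3, an inhibitor bound to matrix, rose 4.66-fold from 62.5 and 67.2 to 316 and 288 CPM. The windows of Mmp10 (chr9:7502092-7502391, plus strand) and Mmp3 (chr9:7445572-7445871, plus strand) are shown because these neighbouring genes fell most, with the AP-1 letters TGANTCA in capitals.
Mmp10: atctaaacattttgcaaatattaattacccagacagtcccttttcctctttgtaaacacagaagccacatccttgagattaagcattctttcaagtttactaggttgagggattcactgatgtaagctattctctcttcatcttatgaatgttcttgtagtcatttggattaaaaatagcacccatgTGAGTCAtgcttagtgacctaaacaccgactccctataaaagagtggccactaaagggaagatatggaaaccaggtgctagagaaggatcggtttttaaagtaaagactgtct
Mmp3: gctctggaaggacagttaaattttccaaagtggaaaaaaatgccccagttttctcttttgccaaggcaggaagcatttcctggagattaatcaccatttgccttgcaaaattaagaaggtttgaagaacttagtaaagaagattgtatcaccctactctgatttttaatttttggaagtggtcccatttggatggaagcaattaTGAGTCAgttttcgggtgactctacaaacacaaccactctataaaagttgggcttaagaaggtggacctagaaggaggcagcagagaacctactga
These letters, which read the same way on both strands, were in the windows of 4 of 14 genes of the list, Mmp3, Mmp10, Mmp12 and Mmp13, and in 7.81% of all windows. The gene of the AP-1 subunit Fosl1 fell by 2.12 on the log2 scale, as given above, and Fos was not called (log2 -0.16).

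**Figure D3:**
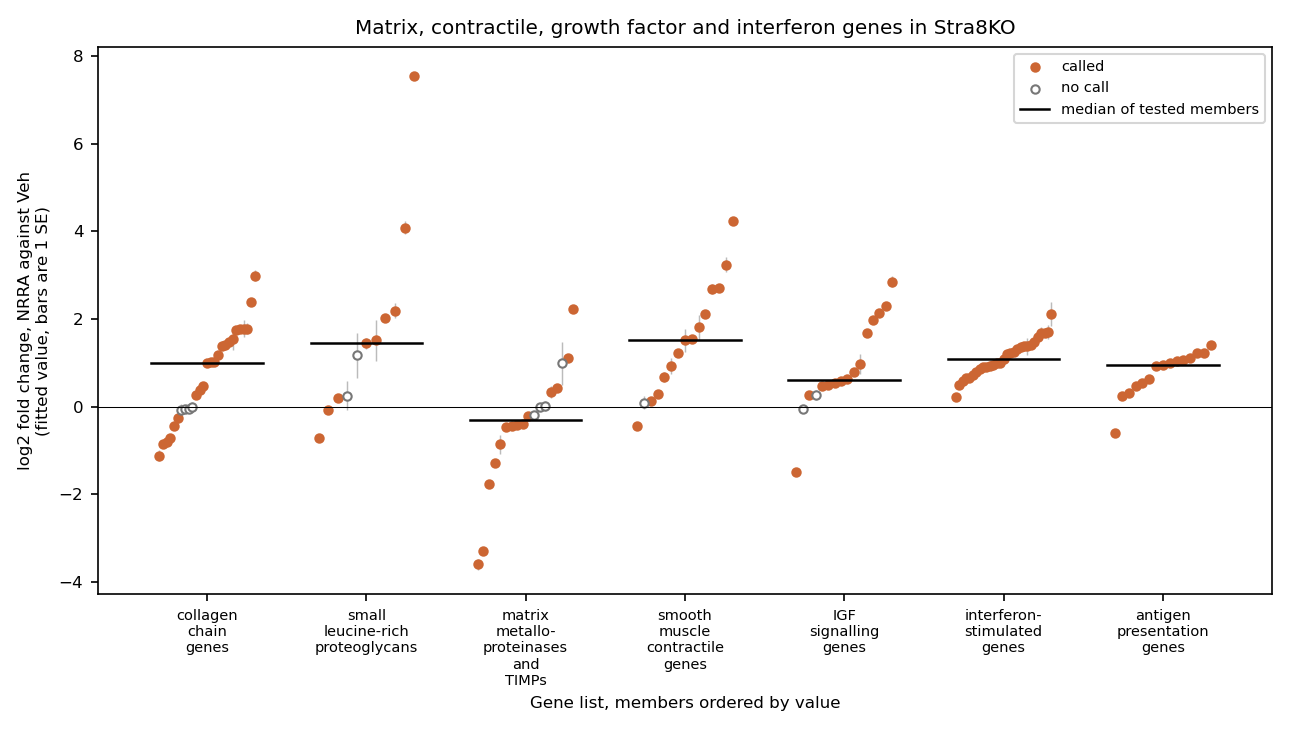
Fitted log2 fold change (NRRA against Veh, Stra8KO) of each tested member of 7 gene lists, with bars of 1 SE, filled points for calls by edgeR and black lines at list medians. Medians lie at 1.00 for collagens, 1.44 for small leucine-rich proteoglycans and 1.52 for contractile genes, and Mmp10 and Mmp3 are the lowest points.

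Growth factor genes of the IGF system rose in 13 of 16 cases and fell in 1 (median 0.61). Igf1 had 3.40, 3.32, 26.3 and 22.5 CPM (7.23-fold). Igfbp3, a binding protein known to respond to RA, rose from 90.1 and 91.2 to 450 and 440 CPM, and Pappa, a protease that cleaves IGF-binding proteins, rose 4.37-fold. Igfbp4, a substrate of that protease, fell from 326 and 314 to 112 and 113 CPM. BMP genes were split at 12 higher and 10 lower of 31. The ligand Bmp2 fell 6.00-fold and the antagonist Grem1 7.66-fold, from 419 and 416 to 54.6 and 54.4 CPM, while the ligands Bmp6 and Bmp4 rose 3.84-fold and 3.79-fold. Wnt genes had 15 higher and 10 lower of 33. The ligands Wnt9a and Wnt2b rose 4.46-fold and 4.66-fold, and the antagonist Dkk2 fell 5.21-fold from 220 and 210 to 42.9 and 39.7 CPM.

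All 29 interferon-stimulated genes rose and 0 fell, also 0 at an unadjusted edgeR p under 0.05, and the median log2 fold change was 1.09. Cxcl10, a chemokine induced by interferon, had 36.6, 34.1, 129 and 177 CPM (4.33-fold, log2 2.11, SE 0.276, edgeR adjusted p 0.00423). Its NRRA libraries lay apart from each other as well as from the Veh libraries. Isg15, a ubiquitin-like protein, had 117, 129, 304 and 348 CPM (2.66-fold), and Ifit3, which restricts viral RNA, had 138, 158, 378 and 447 CPM (2.80-fold). Gbp2, a guanylate-binding protein, rose from 37.6 and 44.7 to 132 and 133 CPM. The smallest rise was that of Irf1 (log2 0.22, SE 0.0463). Veh and NRRA libraries did not overlap in any of the 29 genes, which was also so for 8542 of all 8548 called genes. The lack of overlap therefore adds little to the calls. All were already detected in Veh, at 2418 and 2549 CPM together, against 5153 and 5655 CPM after NRRA. Counts of the near-identical Ifit, Oas and Gbp genes are uncertain, since reads may be shared among copies.

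The windows of Ifit3 (chr19:34583279-34583578, plus strand) and Isg15 (chr4:156200769-156201068, minus strand) are shown for the core letters of the interferon response element, GAAA followed by any 2 bases and GAAA again, in capitals and read on both strands.
Ifit3: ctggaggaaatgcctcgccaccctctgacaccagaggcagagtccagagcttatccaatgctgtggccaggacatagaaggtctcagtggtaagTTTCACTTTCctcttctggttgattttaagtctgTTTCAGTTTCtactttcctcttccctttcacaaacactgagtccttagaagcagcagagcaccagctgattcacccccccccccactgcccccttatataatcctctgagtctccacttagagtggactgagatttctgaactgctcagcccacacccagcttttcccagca
Isg15: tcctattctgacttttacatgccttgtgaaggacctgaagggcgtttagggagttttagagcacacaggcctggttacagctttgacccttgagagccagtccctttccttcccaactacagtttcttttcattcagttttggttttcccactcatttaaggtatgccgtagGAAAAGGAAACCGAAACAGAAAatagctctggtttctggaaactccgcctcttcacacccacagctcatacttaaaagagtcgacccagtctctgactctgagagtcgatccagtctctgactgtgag
Ifit3 holds the letters at 2 places and Isg15 at 3. They were found in 14 of the 22 interferon-stimulated genes with a window (63.6%), in 3 of 13 antigen presentation genes (23.1%), and in 3.44% of all windows. The first 2 shares are over genes, which may have several windows, and the last is over single windows.

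Antigen presentation genes rose in 14 of 15 cases. H2-K1, a class I heavy chain, had 470, 454, 902 and 943 CPM, and B2m, its partner, rose by 0.32 (log2). Psmb9, Psmb8 and Psmb10, the subunits of the immunoproteasome, rose by 1.22, 0.94 and 0.94. Nlrc5, the known activator of class I genes, was the member that fell, from 43.96 and 46.3 to 27.6 and 31.5 CPM. Chemokine genes went both ways, with 9 higher and 5 lower of 17. Ccl20, the ligand of CCR6, had 0.224, 0.302, 16.02 and 16.6 CPM (61.4-fold), Cxcl9 rose 16.8-fold and Cxcl12 2.97-fold. The neutrophil attractants Cxcl2, Cxcl3 and Cxcl1 fell by 1.85, 1.30 and 1.23 on the log2 scale, while the related Cxcl5 rose by 1.01. Markers of other cell types were mixed, with 3 higher and 5 lower of 11 for endothelium, 2 and 1 of 9 for Sertoli and Leydig cells, and 4 and 6 of 19 for keratins and cornified envelope genes. Macrophage markers were called in 3 of 12 tested cases, and the leukocyte gene Ptprc had 0.895, 1.11, 0.821 and 0.646 CPM.

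**Figure D4:**
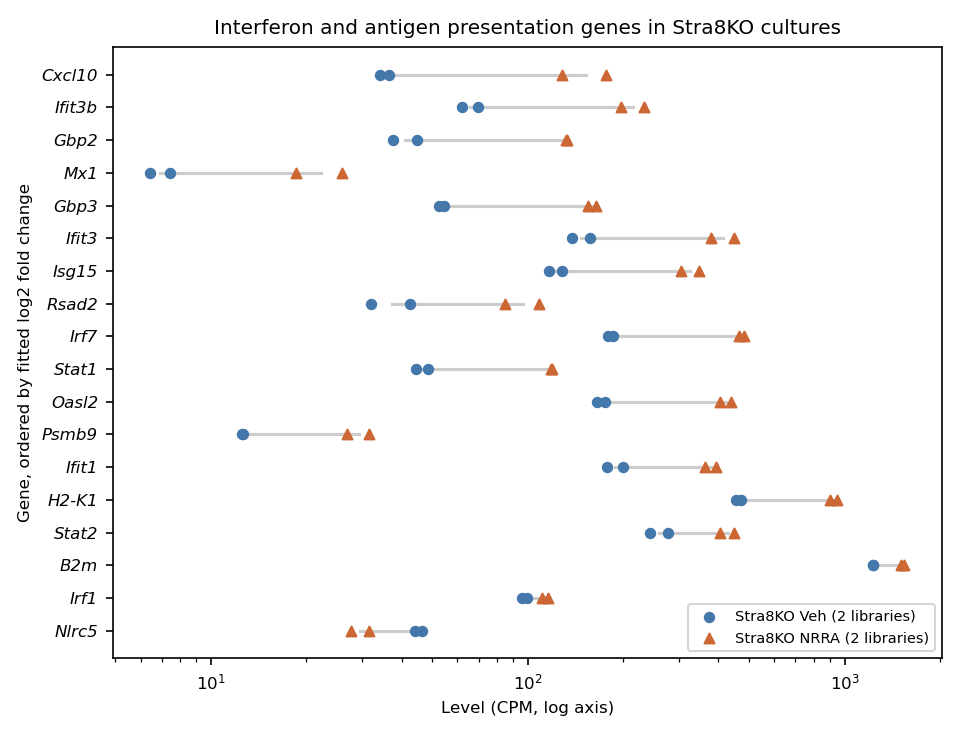
CPM (log axis) of 14 interferon-stimulated and 4 antigen presentation genes, with a circle for each Veh library and a triangle for each NRRA library. In all 18 genes the groups do not overlap, as in 8542 of all 8548 called genes. Cxcl10 and Mx1 show the widest spread between NRRA libraries, and Nlrc5 is the gene that falls.

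Among single genes outside the lists, the casein gene Csn3 rose from 5 and 0 counts to 140 and 135 counts (log2 5.71, SE 0.387), and Rgs4, a regulator of G-protein signalling, from 0.850 and 0.403 to 25.8 and 23.8 CPM. Kndc1 had 0.134, 0.201, 6.61 and 7.06 CPM. Prss23, a serine protease, rose from 99.6 and 109 to 1322 and 1297 CPM, and Saa3, an acute phase protein, from 584 and 630 to 1824 and 1875 CPM. On the lower side, Spp1, osteopontin, fell from 4055 and 3949 to 579 and 595 CPM. Tnc, tenascin C, lost the most CPM among protein-coding genes, from 11324 and 10956 to 3901 and 3799 CPM. Ass1, the arginine synthesis enzyme, had 1482 and 1456 CPM in Veh and 185 and 182 CPM after NRRA. Il33, a cytokine of stromal cells, fell by 3.84 on the log2 scale, Sema7a by 4.35, Cck by 4.18 and the EGF-receptor ligand gene Areg by 3.88.

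The NRRA effect in Stra8KO was then set against that in the cultures labelled Spo11KO by an interaction test. In those cultures Spo11 had 3.03 and 3.26 CPM in Veh and 5.71 and 4.33 CPM after NRRA. Stra8KO had 1.43, 1.56, 3.28 and 3.05 CPM. Gene counts do not show which exons the reads came from, so they did not check the Spo11KO label. The interaction was called for 24.7% of tested genes, 14.6% above and 10.1% below the other cultures, so that 59.2% of the calls were higher. A difference of at least 2-fold was called for 5.62% of genes, 3.89% higher and 1.74% lower. NRRA by itself changed 50.3% of tested genes in the Spo11KO-labelled libraries, 24.7% higher and 25.5% lower. Levels in Veh also differed, in both directions. Mean CPM in Stra8KO Veh and Spo11KO-labelled Veh were 2.41 and 8.72 for Utf1 and 97.4 and 218 for Nefm. They were 4145 and 2315 for Col1a1 and 245 and 191 for Dusp6. How far these levels, or unlike shares of germ and feeder cells, enter the interaction was not tested. The higher share of interaction calls, 59.2% here, was 38.7% with total counts in place of TMM scaling and 46.3% without a filter on low counts, and counts of list members are given with total counts too. All 16 GDNF genes were called for the interaction with the higher value in Stra8KO, or 15 of 16 with total counts. Gfra1 rose by 0.80 in Stra8KO and fell by 1.85 in the other cultures, and Egr3 fell by 1.31 against 5.12, on the log2 scale. Of 25 undifferentiated markers 18 were higher in Stra8KO and 1 lower, or 18 and 4 with total counts. Utf1, which rose 6.06-fold in Stra8KO, had a log2 value of -0.01 in the other cultures (interaction 2.61, edgeR adjusted p 1.57e-13). Of 23 FGF and ERK genes 15 were higher and 1 lower, or 14 and 1.

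**Figure D5:**
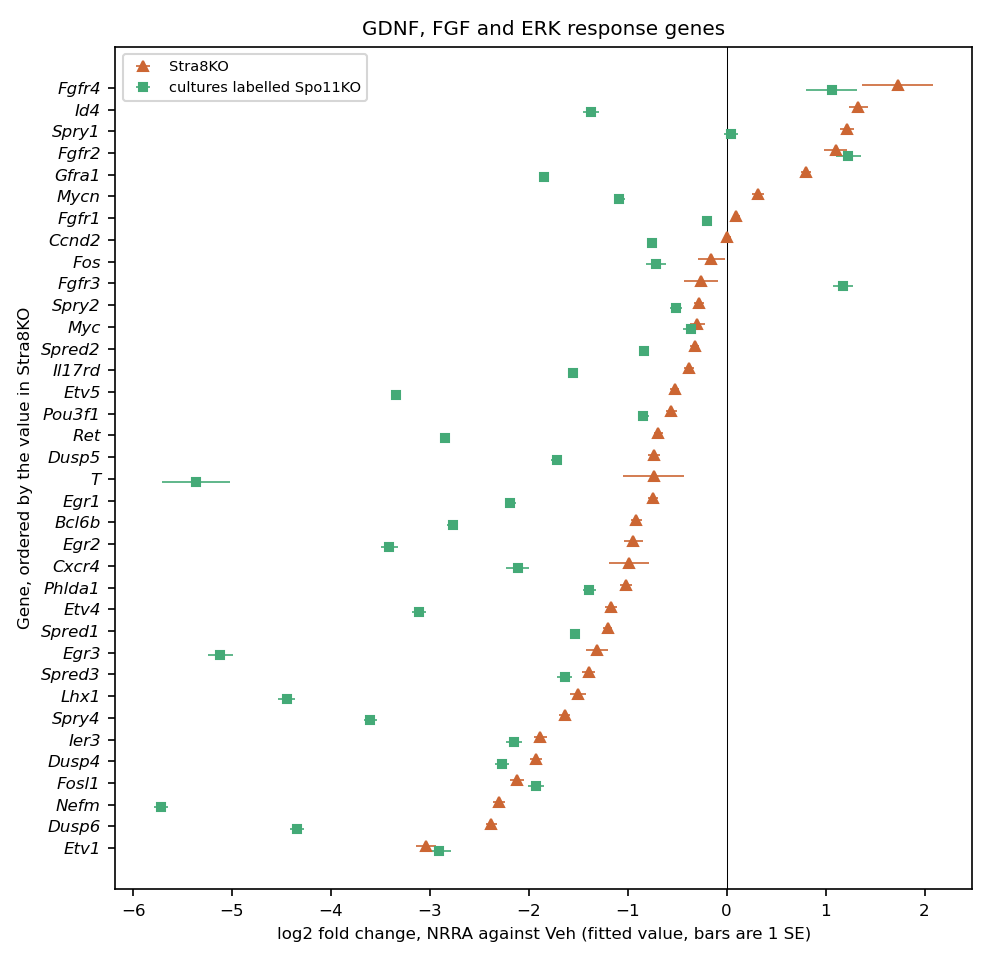
Fitted log2 fold change under NRRA (bars are 1 SE) for genes of the GDNF list and of the FGF and ERK list, in Stra8KO (triangles) and in the cultures labelled Spo11KO (squares). Nefm, Egr3 and Lhx1 lie at -5.71, -5.12 and -4.45 in the cultures labelled Spo11KO and at -2.30, -1.31 and -1.50 in Stra8KO, while Etv1, Fosl1 and Fgfr2 lie close together in both.

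Differences reached other groups. Of 22 glycolysis genes 18 had the higher value in Stra8KO and 0 the lower, under both scalings, and Hk2 fell by 0.12 in Stra8KO against 1.57 in the other cultures, on the log2 scale. Among the tRNA synthetases 12 were higher and 0 lower, but 3 and 1 with total counts. Of the Hox genes of paralog groups 1 to 5, 6 were higher and 0 lower under both scalings. Hoxb1 rose by 1.07 in Stra8KO and fell by 1.42 on the log2 scale in the other cultures. Genes for double-strand breaks went the other way, with 0 higher and 5 lower of 12, or 0 and 6 with total counts. Mei1 rose by 1.02 in Stra8KO and by 1.92 in the other cultures, and Dmc1, of the strand exchange list, had values of -0.18 and 0.61 (interaction -0.78, adjusted p 5.32e-04). Smooth muscle contractile genes were called for the interaction in 2 of 15 cases and small leucine-rich proteoglycans in 1 of 11, or in 3 and 4 with total counts, beside 24.7% of all genes. Acta2 rose by 4.24 and 4.06 in the respective cultures (interaction 0.18, adjusted p 0.0767). Fibroblast markers were called in 6 of 20, or 9 with total counts.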

How the data were processed

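The authors deposited raw counts, unnormalized, in a single table with Ensembl genes as rows and 8 libraries as columns. The submitters' processing notes name bcl2fastq, STAR 2.6.1c, featureCounts 1.6.4 and mm10; strand settings and the handling of multi-mapped reads are not given in the sources used here, so near-identical paralogs and antisense pairs are uncertain. Libraries were poly(A)-selected and strand-marked per the study's methods. Of 55421 genes, filterByExpr kept 20588, with 99.9% of counts. Counts were scaled by TMM and fitted in edgeR 4.0.16 (R 4.3.3) with a group-means model over 8 libraries, robust quasi-likelihood dispersions, two-sided tests and Benjamini-Hochberg adjustment over all tested genes. SE is the absolute log2 fold change over the square root of F. The study's tool, DESeq2 (1.42.0 here), was an alternative. The libraries of each group differed by more than sampling noise. The fit was run on simulated data with equal group means apart from a small set of changed genes. In these data 41.5% of genes were called, so that run does not test the scaling here.

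The members and lists were chosen with earlier results of these data known. Named genes were Stra8, the 10 largest log2 rises and falls among called protein-coding genes of at least 5 CPM with groups apart, the 10 largest CPM changes each way, up to 4 called members per list, and the 5 highest and 5 lowest interactions; other members and the printed promoters were picked after their values were seen. Single values of some members are not reported here. Promoter sequences are from RefSeq (GRCm38.p6). Counts and floors cover counting error only.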

Additional observations from a re-analysis of the deposited data

Results flagged for a closer look

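An interaction test compared the response to NRRA in Stra8KO cultures with that in cultures labelled Spo11KO, and the results listed are those where it was called. It was called for 5094 genes by edgeR at an adjusted p under 0.05. Of these, 625 were called in opposite directions in the genotypes, 417 of them higher in Stra8KO and lower in the cultures labelled Spo11KO. The cause of these differences was not tested.

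The highest interactions, all on the log2 scale, were those of Btbd17 (7.79), Pcdh12 (5.78), Sall3 (5.09), Kndc1 (4.73) and Trf (4.66). Trf, the iron carrier transferrin, had 44.3 and 42.3 CPM in Stra8KO Veh and 76.98 and 79.0 CPM in Stra8KO NRRA, and fell from 106 and 98.9 to 7.56 and 7.03 CPM in the cultures labelled Spo11KO. Btbd17 was at the floor after NRRA in the cultures labelled Spo11KO, so its fitted value is no measure of size. Kndc1 rose to 6.61 and 7.06 CPM in Stra8KO and stayed below 0.5 CPM in the others.

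The lowest interactions were those of Lhx8 (-4.06), Ccno (-3.22), Osbp2 (-3.07), Sema7a (-2.74) and Plk5 (-2.37). Lhx8, a transcription factor of oocytes, was below 1 CPM in all Stra8KO libraries and reached 6.64 and 7.20 CPM after NRRA in the cultures labelled Spo11KO. Ccno fell from 3.09 and 2.27 to 1.16 and 1.43 CPM in Stra8KO and rose from 1.18 and 1.09 to 5.40 and 4.88 CPM in the others.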

How the results depend on the processing

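Counts of called genes in Stra8KO stayed within 1.5 times of 8548 under the alternatives run, apart from the fold limit: 6904 with DESeq2's Wald test, 8695 with DESeq2's size factors and 6716 to 8801 with 1 library left out. When an arm kept 1 library, that library was assumed to vary like the other groups. Requiring a fold change of at least 2 left 2175 genes, 65.8% of them higher, and for the interaction 1158 genes, 69.1% of them higher. The interaction was called for 5575 genes with total counts (38.7% higher) and 4618 without the filter (46.3% higher), against 5094 (59.2% higher), so its balance of directions depends on scaling and filter.

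Whether replicate numbers pair the samples was not settled. Differences between replicates 1 and 2 in Veh and in NRRA correlated across genes at 0.000802 in Stra8KO. In the cultures labelled Spo11KO the value was 0.0558. All tested genes had equal weight, so counting noise in low genes can hide a pairing. With a replicate block 9157 genes were called in Stra8KO and 5883 for the interaction, against 8548 and 5094 without it.

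Of 48 list medians, 25 moved by at least the spread between replicates under at least 1 alternative, and 3 changed sign. For repressors of germline genes the median was 0.00219 and 0.0311 without NRRA replicates 1 and 2, within a range of -0.0212 to 0.0311 with 1 library left out. For autophagy genes it was 0.00405 with an average of at least 10 counts, 0.0485 without Veh replicate 1 and 0.00469 without NRRA replicate 2 (range -0.0424 to 0.0485 with 1 library left out). For keratins it was -0.00920 with size factors, -0.181 with at least 10 counts, -0.0186 with DESeq2, -0.0892 with the 4 Stra8KO libraries, -0.0944 without Veh replicate 1 and -0.0359 without NRRA replicate 1 (range -0.0944 to 0.131). The cause was not tested. Calls in Stra8KO also depended on scaling in some lists. With DESeq2's size factors, autophagy genes had 6 higher and 9 lower, against 11 and 8. Nuclear genes of oxidative phosphorylation had 0 and 29, against 1 and 21, while interferon-stimulated genes stayed at 29 and 0. DESeq2 called 7 Hox genes of groups 1 to 5 higher, against 11 in edgeR, and 0 lower, as it did for meiotic entry, double-strand break, pan-germ and interferon genes. Of 217 results for named genes 12 lost a call under at least 1 alternative and 0 reversed. These genes were picked for the size of their change, which favours stable calls. Smaller calls of other list members, such as Rad21, Smc1a and Rxrb, were not followed singly through the alternatives. Genes under about 1 CPM rest on few counts, with 2 libraries per group.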
